A study of Aspergillus nidulans with 6 samples.

Results

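AtfA, a bZIP-type transcription factor, was bound upstream of 7 genes that work at the crossing of the tricarboxylic acid (TCA) cycle, the glyoxylate cycle, gluconeogenesis and the acetyl-CoA pool of *Aspergillus nidulans* conidia. The 7 bound regions are given by fixed intervals that were chosen by the presence of AtfA peaks in these same 6 lists upstream of genes known from these pathways, and they are 7 of the 707 regions formed when the peaks of all libraries were merged wherever they overlapped by at least 1 bp. The presence of peaks at the 7 genes is therefore no finding, and their levels are a description. The genes are *citA* (AN8275), *acoA* (AN5525), *idpA* (AN2999), *acuD* (AN5634), *acuF* (AN1918), *acuJ* (AN6279) and *coaT* (AN1547), on 5 chromosomes.

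Binding was measured by ChIP-seq with an anti-FLAG antibody in 3 groups of conidia with 2 replicates each. MSB Tr. (3 d) were conidia of 3 d surface cultures that had received menadione sodium bisulfite (MSB), which generates superoxide, at 0.04 mM, Untr. (3 d) were untreated conidia of 3 d cultures, and Untr. (2 d) were untreated conidia of 2 d cultures. All groups carried the same genotype, the *atfA*::3XFLAG strain with *pyrG89*, *pyroA4* and *veA*+, in which the deletion Δ*atfA*::*AfupyrG*+ was complemented by *atfA*-3XFLAG::*pyroA*+, so that AtfA carried the tag and was expressed from the promoter of *atfA* itself with the *trpC* terminator. No library without the tag and no input library was used here, and the labels do not say whether replicates came from separate cultures, so the p-values below measure only the spread between these libraries.

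Citrate synthase makes citrate from acetyl-CoA, aconitase turns it into isocitrate and isocitrate dehydrogenase oxidizes isocitrate to 2-oxoglutarate. Isocitrate lyase diverts isocitrate into the glyoxylate cycle, which lets a fungus grow on acetate, ethanol or fatty acids without losing carbon as CO2. Phosphoenolpyruvate carboxykinase then leads the C4 acids into gluconeogenesis, while carnitine acetyltransferases carry acetyl units between compartments. Conidia are dormant spores, and the study names trehalose and mannitol as their main carbon reserves. The *acu* genes owe their name to acetate utilization.

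The number of peaks per list was 453 and 439 for MSB Tr. (3 d), 473 and 451 for Untr. (3 d) and 473 and 434 for Untr. (2 d). Of the 707 regions, 250 had a peak in all 6 libraries. Read counts are not given, and the depth behind a peak is unknown. The score of a peak is not comparable between lists and was turned into a percentile within its own list, in which 100 is the highest score. Over the 250 regions held by 6 libraries the percentiles of replicates correlated with r = 0.80 for MSB Tr. (3 d), 0.81 for Untr. (3 d) and 0.55 for Untr. (2 d). Replicate 1 of Untr. (2 d) was closest to replicate 2 of MSB Tr. (3 d), with r = 0.76. These are correlations across regions within libraries, given as a description, and they show that the Untr. (2 d) replicates differed from each other more than the replicates of the other groups did. The differences that involve Untr. (2 d) are given below also without single libraries of that group.

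The genes were tied to the regions through the distances between peak centres and transcription start sites (TSS) that accompany the study, and the TSS positions used here are therefore the authors'. Places on all chromosomes were searched where every listed distance of a gene fell on a peak centre and no other centre lay in the window. There was a single such place for each of the 7 genes except *acoA*. For *acoA* there were 2, and the one at its fixed interval was used. Each gene lay on the chromosome of its region in the RefSeq gene table. That table belongs to the assembly ASM1142v1 and was used only for names, chromosomes and order. The coordinates below are 1-based positions in the FGSC A4 genome as the peak lists name it, and no exon or UTR annotation of that build was used.

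Peaks were present in 39 of the 42 possible pairs of a gene and a library. The regions of *citA*, *idpA*, *acuD*, *acuF* and *coaT* had a peak in all 6 libraries, that of *acoA* in 5 and that of *acuJ* in 4. The 3 missing peaks were those of *acoA* in replicate 2 of Untr. (2 d) and of *acuJ* in replicate 2 of Untr. (3 d) and of Untr. (2 d). All 3 gaps were thus in replicate 2 libraries. Both MSB Tr. (3 d) libraries and replicate 1 of each untreated group had a peak at all 7 genes. Summits of the best-scored peaks lay upstream of the TSS in 38 of the 39 cases, which the choice of regions upstream of the genes largely fixed in advance. The exception was *idpA* in Untr. (3 d) replicate 1.

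**Figure D1:**
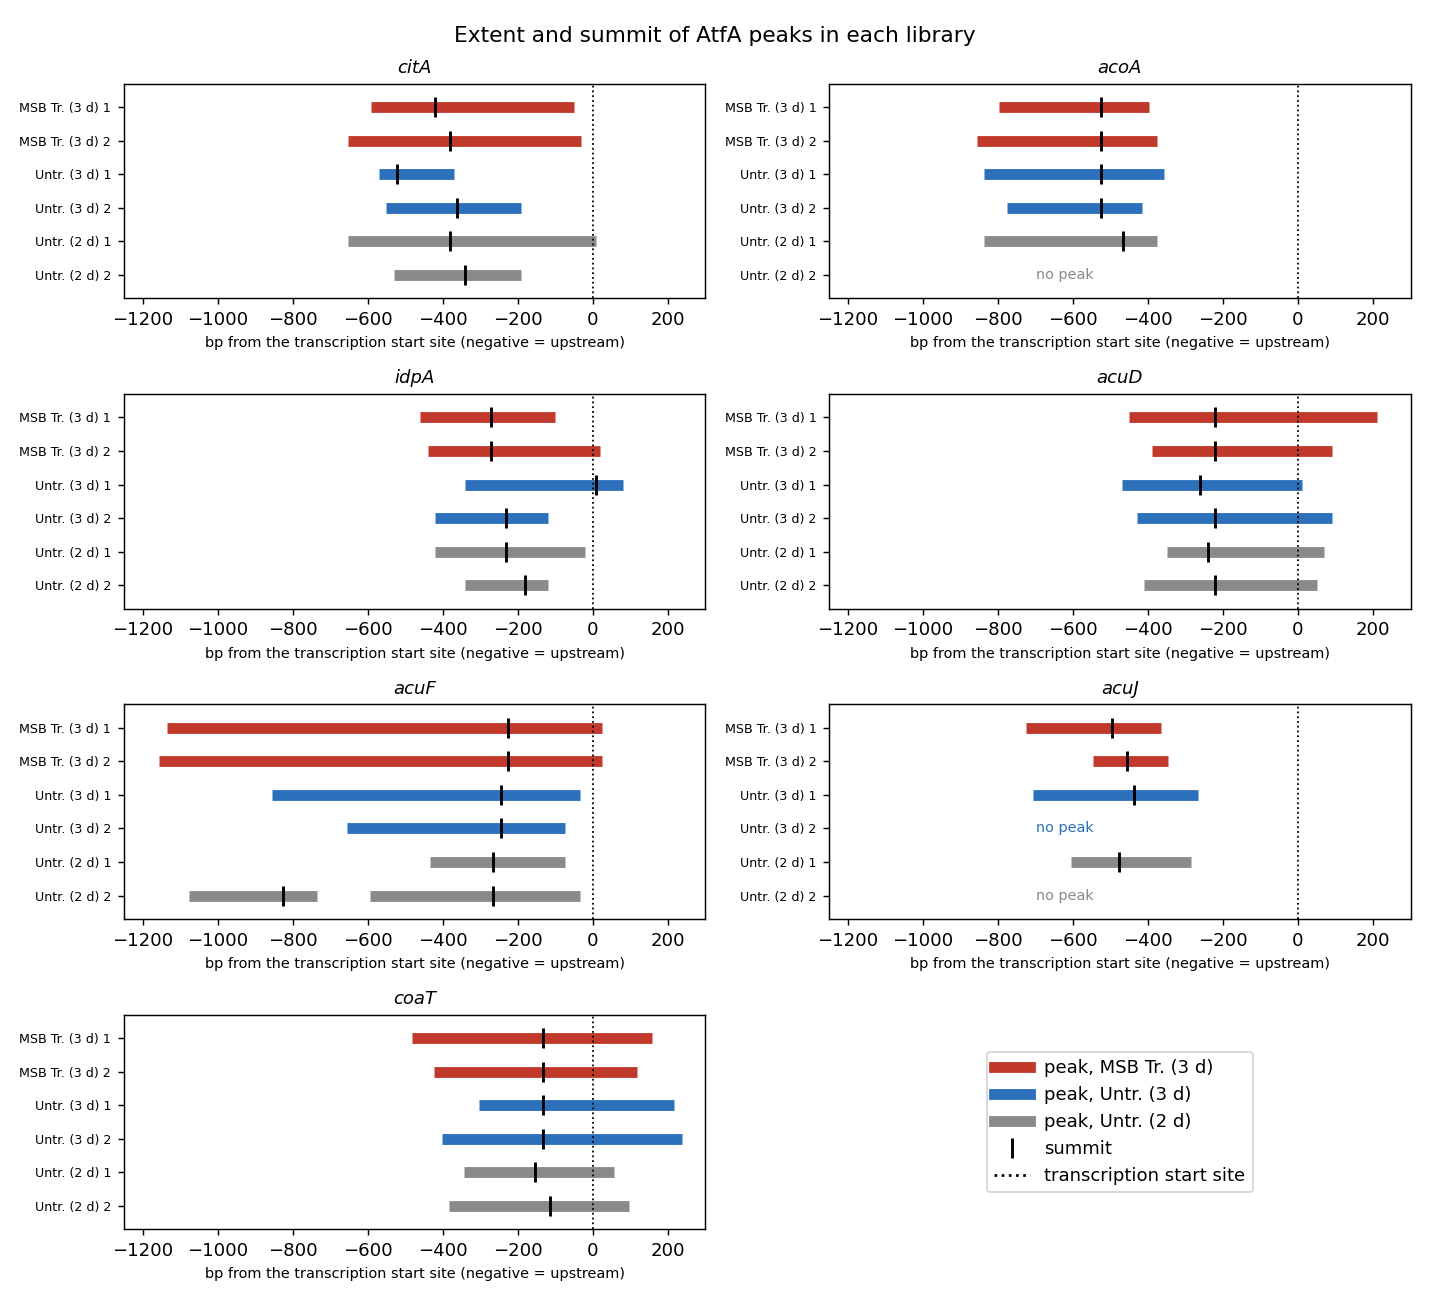
Extent (bars) and summit (black ticks) of the AtfA peaks at the 7 genes in each of the 6 libraries, in bp from the TSS with upstream positions negative, MSB Tr. (3 d) in red, Untr. (3 d) in blue and Untr. (2 d) in grey. The *acuF* peaks reached 1135 and 1155 bp upstream in MSB Tr. (3 d). The summits of the best-scored peaks of *acuD*, *acuF* and *coaT* each stayed within 40 bp over all libraries. The second *acuF* peak of Untr. (2 d) replicate 2 had its summit 825 bp upstream.

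The first gene of the TCA cycle, *citA*, encodes citrate synthase, which condenses acetyl-CoA with oxaloacetate. Its region spans 1354821 to 1355480 on chromosome II, upstream of a gene on the minus strand. The percentile of its peak was 49.8 and 65.3 in MSB Tr. (3 d), against 1.90 and 26.6 in Untr. (3 d) and 67.2 and 9.33 in Untr. (2 d). Both MSB Tr. (3 d) libraries were thus above both Untr. (3 d) libraries, whereas the Untr. (2 d) libraries held the highest value and a value below 10. The SD over the 6 libraries was 28.2 around a mean of 36.7, larger than that of 99.6% of the regions held by 6 libraries, whose median SD was 10.7. Width varied in the same way, with 540 and 620 bp in MSB Tr. (3 d), against 200 and 360 bp in Untr. (3 d) and 660 and 340 bp in Untr. (2 d). The summit lay 341 to 521 bp upstream of the TSS, and its position farthest upstream was that of the weakest and narrowest peak, in Untr. (3 d) replicate 1.

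Aconitase, the iron-sulfur enzyme that turns citrate into isocitrate, is encoded by *acoA*, which has its region at 2515601 to 2516100 on chromosome V, plus strand. Percentiles were 29.2 and 61.3 in MSB Tr. (3 d), 36.6 and 30.5 in Untr. (3 d), and 56.2 in Untr. (2 d) replicate 1. The groups overlapped, and the gap between the MSB Tr. (3 d) replicates was wider than any difference between group means. In replicate 2 of Untr. (2 d) the nearest peak was 33781 bp away, so no neighbouring peak stood in for the missing one. The summit was at the same position, 526 bp upstream of the TSS, in all 4 libraries of 3 d cultures and 466 bp upstream in Untr. (2 d) replicate 1.

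The *idpA* gene encodes the NADP-dependent isocitrate dehydrogenase, a source of NADPH and of 2-oxoglutarate. Its region covers 2139761 to 2140300 on chromosome VI, upstream of a gene on the minus strand. Percentiles were 51.2 and 69.1 in MSB Tr. (3 d), against 31.5 and 52.3 in Untr. (3 d) and 73.2 and 17.7 in Untr. (2 d). The highest and the lowest value were both in Untr. (2 d), and the SD of 21.4 around a mean of 49.2 exceeded that of 92.4% of the regions held by 6 libraries. The summit was 180 to 270 bp upstream of the TSS in 5 libraries and 10 bp downstream of it in Untr. (3 d) replicate 1. This spread of 280 bp was large beside a median of 70 bp over the regions held by 6 libraries, while the whole peak of that library still covered the stretch from 340 bp upstream to 80 bp downstream.

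In the glyoxylate cycle, *acuD* encodes isocitrate lyase, which splits isocitrate into glyoxylate and succinate. Its region spans 2140961 to 2141640 on chromosome V, plus strand. Percentiles were 72.6 and 65.8 in MSB Tr. (3 d), against 78.2 and 86.6 in Untr. (3 d) and 81.2 and 52.0 in Untr. (2 d). Both MSB Tr. (3 d) libraries were below both Untr. (3 d) libraries, the opposite order to *citA*, and they lay between the Untr. (2 d) replicates. The summit position varied little, from 220 to 260 bp upstream of the TSS, and it was at 220 bp in 4 of the 6 libraries. The peaks ran across the TSS in all 6 libraries, to between 10 and 210 bp downstream of it.

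Phosphoenolpyruvate carboxykinase, the enzyme that commits oxaloacetate to gluconeogenesis, is encoded by *acuF*, whose region at 2257401 to 2258580 on chromosome VII was the longest of the 7 with 1180 bp. Percentiles were 82.3 and 87.5 in MSB Tr. (3 d), against 74.9 and 68.1 in Untr. (3 d) and 62.1 and 70.2 in Untr. (2 d). Both MSB Tr. (3 d) libraries were thus above all 4 untreated ones. The best-scored peak was 1160 and 1180 bp wide in MSB Tr. (3 d), against 820 and 580 bp in Untr. (3 d) and 360 and 560 bp in Untr. (2 d), again without overlap between the treated and the untreated libraries. Among the regions held by 6 libraries, this peak ranked 7 and 4 by width in MSB Tr. (3 d), against 12 and 64 in Untr. (3 d) and 133 and 53 in Untr. (2 d).

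The additional width at *acuF* lay mostly on the side away from the gene. The far edge was 1135 and 1155 bp upstream of the TSS in MSB Tr. (3 d), against 855 and 655 bp in Untr. (3 d) and 435 and 595 bp in Untr. (2 d), whereas the near edge stayed between 25 bp downstream and 75 bp upstream in all 6. In replicate 2 of Untr. (2 d) a separate second peak of 340 bp reached from 735 to 1075 bp upstream, with its summit at 825 bp and a percentile of 15.9, so the distant stretch was bound there too but was called as a peak of its own. With both peaks counted, the width in that library was 900 bp, still below both MSB Tr. (3 d) libraries. The main summit was 225 bp upstream in both MSB Tr. (3 d) libraries and 245 bp upstream in both Untr. (3 d) libraries. It was 265 bp upstream in both Untr. (2 d) libraries. Each of these shifts equals the 20 bp step of the peak ends, while summits can differ by 10 bp.

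Acetyl units are carried as acetylcarnitine between mitochondria, peroxisomes and cytosol, and *acuJ* encodes the mitochondrial and peroxisomal carnitine acetyltransferase. Its region at 674201 to 674660 on chromosome I had the lowest mean percentile of the 7 genes, with values of 20.5 and 17.9 in MSB Tr. (3 d), 17.7 in Untr. (3 d) replicate 1 and 22.9 in Untr. (2 d) replicate 1. The 4 values differed little (mean 19.8 ± 2.49, SD, n = 4 libraries), all near the low end of their lists, and the other 2 libraries had no peak. Summits lay 436 to 496 bp upstream of the TSS. Another region, at 672941 to 673400 and 801 bp farther upstream, had a peak in all 6 libraries with a highest percentile of 68.3, and it was not counted for *acuJ*.

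The last gene, *coaT*, encodes an acetyl-CoA hydrolase and CoA transferase that moves CoA from propionyl-CoA, a toxic intermediate of odd-chain substrates. Its region spans 1128861 to 1129580 on chromosome VII, plus strand. The percentile was 95.0 and 95.2 in MSB Tr. (3 d), against 93.3 and 93.1 in Untr. (3 d) and 88.9 and 92.7 in Untr. (2 d), so that *coaT* had the best-scored peak of the 7 genes in every library. Its mean of 93.1 was exceeded by 23 of the regions held by 6 libraries, and its SD of 2.28 was larger than that of only 4% of them. The summit was 133 bp upstream of the TSS in all 4 libraries of 3 d cultures, and 153 and 113 bp upstream in Untr. (2 d). The peaks of all 6 libraries crossed the TSS.

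In the order of mean percentiles, *coaT* stood first with 93.1 ± 2.28, followed by *acuF* with 74.2 ± 9.43 and *acuD* with 72.7 ± 12.4 (SD, n = 6 libraries each), against a median of 68.7 over the regions held by 6 libraries. After them came *idpA* with 49.2 ± 21.4 (n = 6), *acoA* with 42.8 ± 14.97 (n = 5), *citA* with 36.7 ± 28.2 (n = 6) and *acuJ* with 19.8 ± 2.49 (n = 4). Within libraries, the order of the neighbours *acuF* and *acuD* changed from library to library, as did that of *acoA* with *idpA* and with *citA*. In contrast, *idpA* ranked above *citA* in all 6 libraries, although their values overlapped between libraries. These orders are a description and were not tested.

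**Figure D2:**
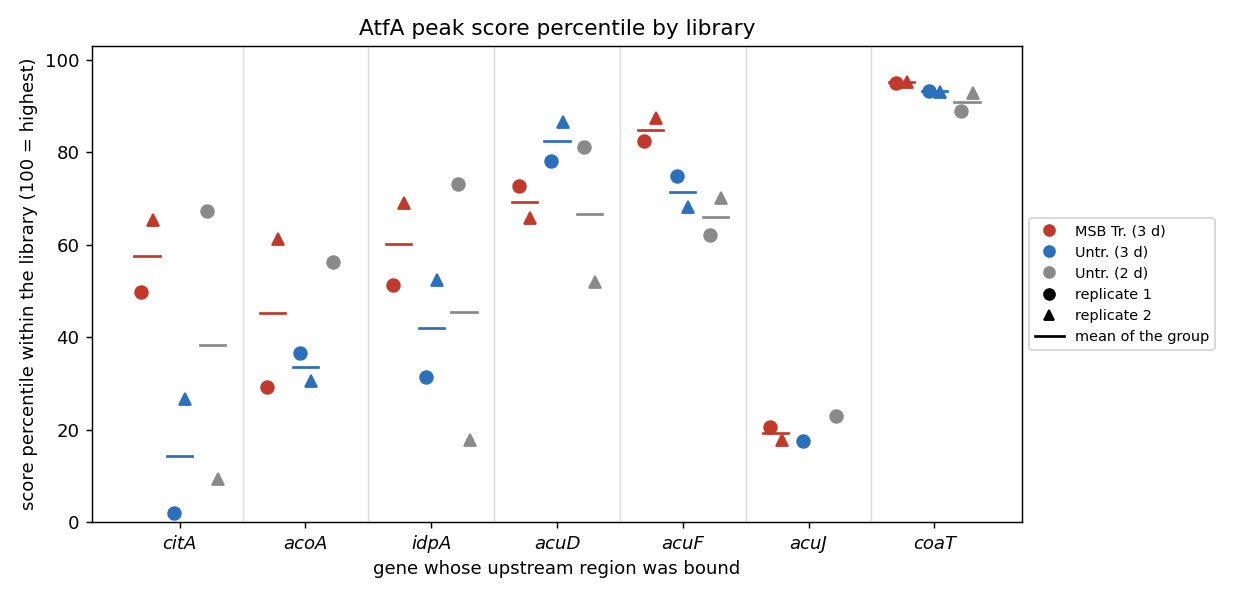
Score percentile within the library (100 is the highest score) of the best-scored AtfA peak at each of the 7 genes, with MSB Tr. (3 d), Untr. (3 d) and Untr. (2 d) from left to right in each gene, replicates 1 and 2 as circles and triangles, and group means as lines where both replicates had a peak. Points of *coaT* sit between 88.9 and 95.2, while those of *citA* spread from 1.90 to 67.2.

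The comparison of MSB Tr. (3 d) with Untr. (3 d) asks whether exposure to menadione went with a different rank of the peaks at the same culture age. It could be made for 296 regions with a peak in all 4 libraries, among them 6 of the 7 genes (*acuJ* lacked a peak in Untr. (3 d) replicate 2). The percentiles of both groups did not overlap for 4 genes. *citA*, *acuF* and *coaT* were higher in both MSB Tr. (3 d) libraries, where 27% of all regions were higher in that way, and *acuD* was lower, where 25% were lower. A call of this kind was therefore common in the series.

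The mean percentile of *citA* was 57.5 in MSB Tr. (3 d) and 14.3 in Untr. (3 d), a difference of 43.3 percentage points that was larger than that of 98.6% of the 296 regions. For *acuF* the means were 84.9 in MSB Tr. (3 d) and 71.5 in Untr. (3 d), a difference of 13.4. For *acuD* they were 69.2 in MSB Tr. (3 d) and 82.4 in Untr. (3 d), a difference of -13.2. For *coaT* the difference in percentile was only 1.89, and the score over the median score of its list ran the other way, with 1.79 and 1.47 in MSB Tr. (3 d) and 1.88 and 1.90 in Untr. (3 d), so the direction at *coaT* depends on the scale. *idpA* (18.3) and *acoA* (11.7) had positive differences with overlapping groups, and that of *idpA* ranged from 7.85 without replicate 1 of Untr. (3 d) to 28.7 without replicate 2. The median difference over the 6 genes was 12.6 percentage points, beside -0.23 over all 296 regions. The genes are not replicates of the condition, and no test was made over them together. Ranked by width, *acoA*, *acuD* and *coaT* changed sign, while *citA*, *idpA* and *acuF* did not.

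With 2 libraries against 2, the exact permutation test cannot give a p below 0.333, and this smallest value was reached by the 4 genes without overlap (two-sided, adjusted p = 0.641 over the 296 regions by Benjamini-Hochberg). None of the 296 regions had an unadjusted p under 0.05, which this design cannot reach. Without MSB Tr. (3 d) replicate 1 the number of genes that were higher was 5, where 36.1% of all regions were higher under the same omission. Without replicate 2 of that group 2 genes were lower, where 33.4% of all regions were lower, and the difference of *acoA* turned to -4.28.

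Peak width was compared in the same libraries. It was larger in both MSB Tr. (3 d) libraries at *citA* (mean 580 bp against 280 bp in Untr. (3 d), a difference of 300 bp) and at *acuF* (1170 bp against 700 bp, a difference of 470 bp), where 22.3% of all regions were wider and 6.76% narrower in both libraries. The other 4 genes overlapped. The exact permutation p was again the smallest possible, 0.333, and the adjusted p was 1. The median width of all peaks was 400 and 360 bp in MSB Tr. (3 d) and 340 bp in each Untr. (3 d) library. With each width divided by the median of its list, the groups still did not overlap at either gene, with 2.90 and 3.28 in MSB Tr. (3 d) against 2.41 and 1.71 in Untr. (3 d) at *acuF*.

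**Figure D3:**
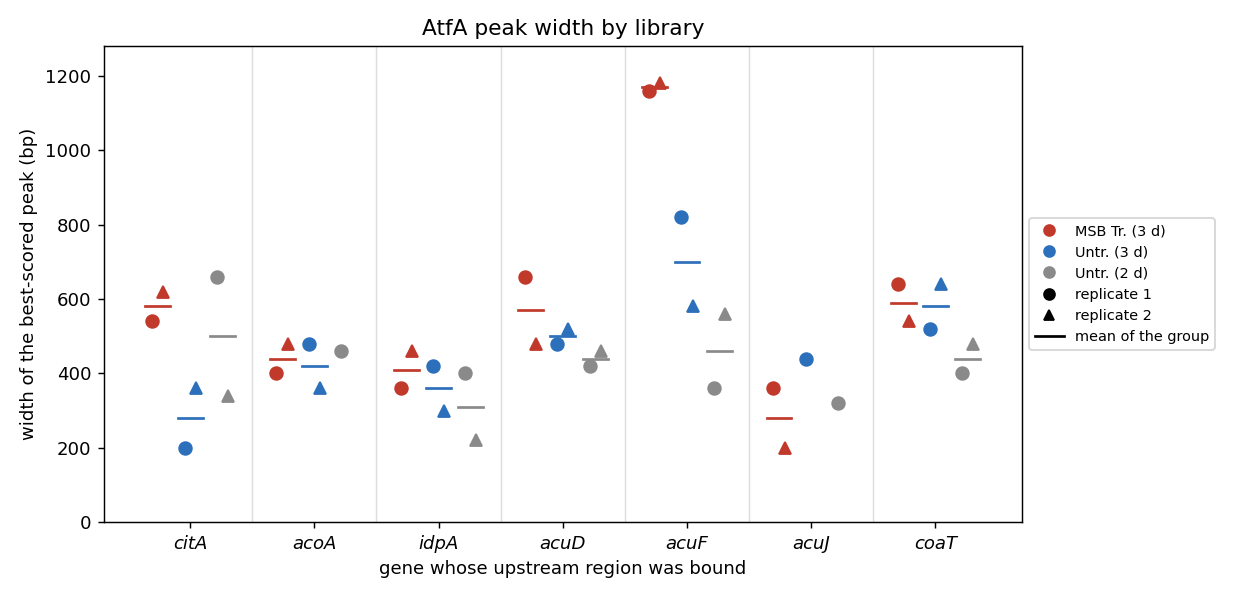
Width in bp of the best-scored AtfA peak at each of the 7 genes, with MSB Tr. (3 d), Untr. (3 d) and Untr. (2 d) from left to right in each gene, replicates 1 and 2 as circles and triangles, and group means as lines where both replicates had a peak. At *acuF* the MSB Tr. (3 d) peaks of 1160 and 1180 bp stand above all untreated ones, the widest of which was 820 bp.

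The comparison of Untr. (3 d) with Untr. (2 d) asks about the age of the culture and could be made for 263 regions, 5 of them at the 7 genes. Only *coaT* was without overlap, with a mean percentile of 93.2 in Untr. (3 d) and 90.8 in Untr. (2 d), a difference of 2.41, where 17.5% of all regions were higher and 16.7% lower in that way. On the scale of the score over the list median the groups overlapped, with 1.88 and 1.90 in Untr. (3 d) and 1.74 and 2.06 in Untr. (2 d). The groups overlapped for *citA* (-24.0), *idpA* (-3.53), *acuD* (15.8) and *acuF* (5.40).

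These values moved strongly with single libraries. Without replicate 1 of Untr. (2 d) the differences were 4.92 for *citA*, 24.2 for *idpA*, 30.4 for *acuD*, 1.35 for *acuF* and 0.49 for *coaT*. Without replicate 2 of Untr. (2 d) they were -53.0 for *citA*, -31.2 for *idpA*, 1.22 for *acuD*, 9.46 for *acuF* and 4.33 for *coaT*. The sign of *citA* and *idpA* thus differed between these omissions, and that of *idpA* also turned without replicate 1 of Untr. (3 d), to 6.88. Left-out libraries of Untr. (3 d) further moved *citA* to between -36.4 and -11.7 and *acuF* to between 1.96 and 8.84. The number of genes that were higher without overlap was 2 or 3 when any 1 of the 4 libraries was left out, where between 29.7% and 38% of all regions were higher. The smallest exact permutation p was 0.333 and the smallest adjusted p 0.948. Width was larger in both Untr. (3 d) libraries at *acuD* (by 60 bp), *acuF* (by 240 bp) and *coaT* (by 140 bp), where 22.1% of all regions were wider and 9.89% narrower. At *acuF* the groups overlapped once the second peak of replicate 2 of Untr. (2 d) was added to the width, and the difference was then 70 bp.

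**Figure D4:**
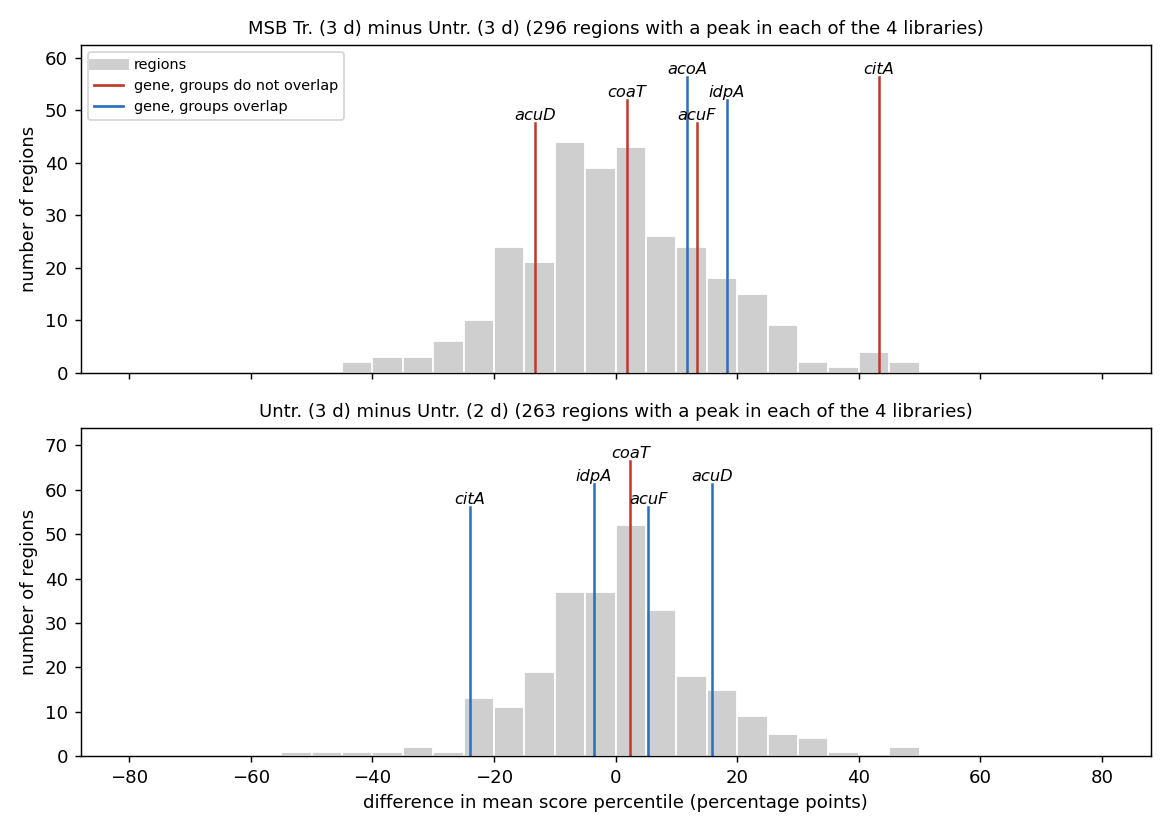
Histograms of the difference in mean score percentile, in percentage points, for MSB Tr. (3 d) minus Untr. (3 d) over 296 regions (top) and Untr. (3 d) minus Untr. (2 d) over 263 regions (bottom), with the genes as vertical lines, red where the groups did not overlap and blue where they did. *citA* lies at 43.3 in the upper panel and at -24.0 in the lower one, and both panels share the Untr. (3 d) libraries.

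MSB Tr. (3 d) was also set against all 4 untreated libraries, over 250 regions. Since the Untr. (3 d) libraries serve in each of the 3 comparisons, these are not independent of each other. *acuF* and *coaT* were higher in both MSB Tr. (3 d) libraries than in every untreated one, where 10.8% of all regions were higher and 8% lower in that way. For *acuF* the mean percentile was 84.9 in MSB Tr. (3 d) and 68.8 in the untreated libraries, a difference of 16.1 (exact permutation test, two-sided, p = 0.0667, the smallest that 2 against 4 libraries allow, adjusted p = 0.781). For *coaT* the difference was 3.10 (exact p = 0.133), and on the scale of the score over the list median it was negative (log2 difference -0.23). *citA* (31.3), *idpA* (16.5) and *acuD* (-5.26) overlapped. Without replicate 1 of Untr. (2 d) the groups no longer overlapped at *citA* either, as 21.2% of all regions were then higher without overlap, and the differences were 44.9 for *citA*, 26.3 for *idpA*, -3.03 for *acuD*, 13.8 for *acuF* and 2.06 for *coaT*.

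The width of *acuF* averaged 1170 bp in MSB Tr. (3 d) and 580 bp in the untreated libraries, a difference of 590 bp (exact permutation test, p = 0.0667, adjusted p = 0.794), where 12.4% of all regions were wider in both MSB Tr. (3 d) libraries and 1.2% narrower. It exceeded the difference of 98.8% of the 250 regions. With the second peak of replicate 2 of Untr. (2 d) added, the difference was 505 bp (exact permutation p = 0.133). None of the other 4 genes tested was without overlap in width.

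A list of 20 further genes of these pathways was looked up through the same kind of distances. The search covered only the chromosome that the RefSeq gene table gives for each gene. Of the 20 genes, 3 could be tied to a region and 3 were listed with a peak that could not be placed. The other 14 had no entry in the list of distances used, so that their binding is not analysed here. For *facC* the TSS was taken from the distances listed for the narrower promoter window. *facC* (AN1059), which encodes the cytosolic carnitine acetyltransferase, had a peak in all 6 libraries at 1648941 to 1649620 on chromosome VIII. Its percentiles were 78.6 and 73.2 in MSB Tr. (3 d), against 80.4 and 92.7 in Untr. (3 d) and 48.0 and 87.2 in Untr. (2 d), with the MSB Tr. (3 d) libraries below the Untr. (3 d) libraries as at *acuD*. In the 4 libraries with peaks at both genes, it ranked above that of *acuJ*, which encodes the other carnitine acetyltransferase.

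The other 2 genes had weak and irregular peaks. *facA* (AN5626), which encodes acetyl-CoA synthetase, had a peak at 2172261 to 2172580 on chromosome V in Untr. (3 d) replicate 2 (percentile 19.0) and replicate 2 of Untr. (2 d) (27.3), and a separate one at 2173101 to 2173320 in Untr. (3 d) replicate 1 (2.96), but none in MSB Tr. (3 d). *acuG* (AN5604), which encodes the gluconeogenic fructose-1,6-bisphosphatase, had a peak at 2253841 to 2254140 on the same chromosome in MSB Tr. (3 d) replicate 2 (38.0) and replicate 2 of Untr. (2 d) (3.69), and its placement rests on only 2 listed distances. None of these 3 regions had a peak in both replicates of any group.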

How the data were processed

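Per the labels and the methods of the study, the authors generated single reads of 75 bp, aligned them with Bowtie2 (reference from JGI MycoCosm), discarded PCR duplicates with Picard, made tracks in RPKM with deepTools and ran MACS2 on each library on its own. The score of each peak, a whole number, was deposited by the authors' peak caller on a scale that differs between lists. Peak ends are the authors' positions in steps of 20 bp, whereas their summits can differ by 10 bp. Fold enrichment, p and q are 0 in every list and were left out. As no read counts are given, depth and counting intervals are unknown.

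Regions were formed from peaks that overlapped by at least 1 bp, and scores were ranked within each list and divided by the number of peaks (percentile). The best-scored peak stood for a region in a library. Groups were taken from the sample titles. They were compared with two-sided exact permutation tests over libraries in every region with a peak in all libraries compared, with Benjamini-Hochberg adjustment over these regions, and a region was called higher or lower where the groups did not overlap. The procedure was run on simulated percentiles with known shifts. Their spread was below the median spread of the regions held by 6 libraries, so the run checks the calculation only. Python 3.11.15, numpy 2.4.6, pandas 2.3.3 and scipy 1.17.1 were used. All 7 genes were named, with those of the list of 20 further genes that could be tied to a region. The genes and lists were chosen with earlier results of these data known. Motifs, sequences and gene expression are not reported here, and no genome in the coordinates of the lists was used. Alternatives were another ranking (width, score over the list median, or only the peaks of regions held by 6 libraries), another choice of peak, an overlap of 50%, the 300 best peaks, a replicate block, each library left out in turn, and, chosen after seeing the data, the width over the list median.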

Additional observations from a re-analysis of the deposited data

Results flagged for a closer look

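Over the 4 untreated libraries, the percentile of *coaT* was 88.9 in Untr. (2 d) replicate 1 and between 92.7 and 93.3 in the other 3. The gap to the nearest value made up 0.865 of the range, above Dixon's 95% critical value for 4 samples. Chance flags about 1 in 20 such groups.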

How the results depend on the processing

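The design limits every comparison, since 2 libraries against 2 or 4 cannot reach an exact p under 0.05, and depth could not be judged without read counts. Of 153 values of percentile differences under the alternatives, 141 kept their sign. Ranking by width gave the opposite sign in MSB Tr. (3 d) against Untr. (3 d) for *acoA* (-3.51), *acuD* (1.68) and *coaT* (-4.87), where 2 genes instead of 3 were higher without overlap. It also did so in Untr. (3 d) against Untr. (2 d) for *idpA* (8.72). The sign of *acuD* turned as well (2.67) in MSB Tr. (3 d) against all untreated libraries, where 1 gene was higher without overlap instead of 2. With the log2 score over the list median, *coaT* turned to -0.22, -0.00086 and -0.23 in the 3 comparisons. On that scale, 2 genes instead of 3 were higher and 2 instead of 1 were lower in MSB Tr. (3 d) than in Untr. (3 d). Further, 0 instead of 1 were higher in Untr. (3 d) than in Untr. (2 d), and 1 instead of 2 was higher in MSB Tr. (3 d) than in all untreated libraries. Among the peaks of regions held by 6 libraries, 0 genes were higher in Untr. (3 d) than in Untr. (2 d), and with the summit nearest to the interval centre 2 were, as *acuF* was then represented by the weak second peak of replicate 2 of Untr. (2 d). Width over the list median turned the width differences of *acoA* (-0.069) and *coaT* (-0.16) in MSB Tr. (3 d) against Untr. (3 d). The cause of the other changes was not tested.

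With single libraries left out, the number of genes without overlap in MSB Tr. (3 d) against Untr. (3 d) ranged from 3 to 5 higher and from 1 to 2 lower, where between 36.1% and 40.2% of all regions were higher and between 33.4% and 40.5% lower, and the difference of *acoA* from -4.28 to 27.7. In Untr. (3 d) against Untr. (2 d) it ranged from 2 to 3 higher and from 0 to 2 lower, where between 29.7% and 38% of all regions were higher and between 28.5% and 39.5% lower, with *citA* between -53.0 and 4.92 and *idpA* between -31.2 and 24.2. In MSB Tr. (3 d) against all untreated libraries the number that were lower ranged from 0 to 1, the 1 (*acuD*) occurring without replicate 2 of Untr. (2 d), where 13.2% of all regions were lower. Presence in 39 of 42 cases was the same with an overlap of at least 50%. Among the 300 best peaks of each list, 28 of the 39 remained, with *acuJ* in 0 libraries and *citA* and *acoA* in 3 each.

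The libraries share replicate numbers between groups, and the labels name no shared batch. The deviations of same-numbered libraries correlated over 250 regions with r = 0.24 between MSB Tr. (3 d) and Untr. (3 d), -0.40 between MSB Tr. (3 d) and Untr. (2 d) and -0.29 between Untr. (3 d) and Untr. (2 d), so the numbers were not taken to pair the libraries. With the replicate block, a gene counted as higher or lower where both same-numbered differences had that sign. In MSB Tr. (3 d) against Untr. (3 d), 4 genes instead of 3 were then higher, with *idpA* added, where 33.4% of all regions were higher. Against the mean of the untreated libraries of the same number, 3 genes instead of 2 were higher in MSB Tr. (3 d), with *citA* added, and 1 (*acuD*) instead of 0 was lower, where 34% of all regions were higher and 20.4% lower. The counts of the other comparison were the same, and the smallest exact p was 0.5.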
